A study of Mus musculus with 22 samples.

Results

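The 45 genes described here are interferon-stimulated genes, picked by gene symbol from 21110 genes measured in mouse ear. They were divided by known responsiveness into 30 genes typical of type I interferon and 15 genes typical of interferon gamma (IFN-gamma) or of the transcription factor IRF1. The division is not strict, since 10 of the members are known to respond to both, among them Irf1, Cxcl10, Irf9 and Lgals3bp. Without these 10 the classes hold 23 and 12 genes. All 45 were found in the files. RNA was sequenced from ears of C57BL/6 mice of 2 genotypes at 2, 8 and 10 weeks of age, in 22 libraries. In the mice labelled cKO, the gene Socs3 was to be deleted by a keratin 5-specific conditional knockout, so that deletion was directed at basal keratinocytes and not at the other cells of the ear; the controls were wild type (WT). There were 4 WT and 4 cKO libraries at 2 weeks, 3 WT and 4 cKO at 8 weeks, and 3 WT and 4 cKO at 10 weeks. The labels name keratinocytes as the source, but RNA was extracted from ear specimens, and fibroblast, endothelial and immune marker genes were present beside the keratinocyte genes Krt5 and Krt14. In such bulk samples, fewer cells of a type and less RNA per cell cannot be told apart.

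As background, type I interferons signal through IFNAR1 and IFNAR2 and the kinases JAK1 and TYK2 to a complex that contains STAT2 and IRF9 and binds the interferon-stimulated response element (ISRE) of antiviral genes. IFN-gamma acts through IFNGR1 and IFNGR2 and the kinases JAK1 and JAK2 on genes with a gamma-activated site (GAS) and induces IRF1, which in turn drives chemokine, antigen-processing and GTPase genes. SOCS3 inhibits cytokine receptors that signal through JAK kinases and STAT3, and in skin the interferon-stimulated genes are best known from antiviral defence and inflammatory disease.

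Promoter windows of 7 members are shown because these members carry the comparisons below and hold the elements through which the classes are known to respond. Sequences are RefSeq promoters of build GRCm38.p6, 5′ to 3′ on the gene's strand, and capitals mark the matches. ISRE was searched as GAAA, any 2 bases, then GAAA, and GAS as TTCNNNGAA, both on either strand. Overlapping ISRE matches run together in Irgm1 and Isg15.
Irf1, GAS, chr11:53769878-53769977, plus strand: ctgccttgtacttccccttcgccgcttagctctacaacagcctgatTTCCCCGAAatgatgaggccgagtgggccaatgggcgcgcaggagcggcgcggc
Psmb8, GAS, chr17:34198052-34198151, plus strand: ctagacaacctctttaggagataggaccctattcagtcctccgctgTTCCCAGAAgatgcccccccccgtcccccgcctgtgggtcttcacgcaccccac
Cxcl10, ISRE, chr5:92349040-92349139, minus strand: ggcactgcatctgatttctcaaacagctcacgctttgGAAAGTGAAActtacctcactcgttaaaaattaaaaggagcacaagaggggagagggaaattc
Gbp2, ISRE, chr3:142620559-142620658, plus strand: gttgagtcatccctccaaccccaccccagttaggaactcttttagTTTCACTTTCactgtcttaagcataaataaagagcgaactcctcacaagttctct
Irgm1, ISRE, chr11:48871421-48871520, minus strand: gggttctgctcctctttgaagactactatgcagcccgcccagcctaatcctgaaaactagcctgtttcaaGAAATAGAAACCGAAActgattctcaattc
Isg15, ISRE, chr4:156200836-156200935, minus strand: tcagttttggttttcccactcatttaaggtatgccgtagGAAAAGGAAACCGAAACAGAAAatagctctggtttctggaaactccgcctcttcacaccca
Ifit1, ISRE, chr19:34640749-34640848, plus strand: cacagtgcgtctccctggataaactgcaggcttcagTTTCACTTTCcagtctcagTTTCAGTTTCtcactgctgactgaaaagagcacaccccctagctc

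Of the 45 members, 33 had a promoter in the RefSeq table, which spans 250 bases before to 50 bases after the gene start. The ISRE letters were found in 15 of these 33 promoters (45.5%), against 3.44% of all 32851 promoters. Counted by gene symbol with a match in any promoter, the background was 3.99% of 27025 symbols. They were found in 10 of 21 type I members (47.6%) and in 5 of 12 members of the IFN-gamma and IRF1 class (41.7%), so these letters did not separate the classes. GAS letters were found in 9 of 33 member promoters (27.3%), against 8.3% of all promoters and 9.55% of symbols. By class this was 23.8% of the type I promoters and 33.3% of the IFN-gamma and IRF1 promoters. In the Irf1 window the GAS match starts 90 bases before the gene start, and in Isg15 a run of 3 overlapping ISRE matches starts 78 bases before it.

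Values are FPKM, fragments per kilobase of transcript scaled to the library's mapped fragments, as the authors deposited them. Changes are differences in log2(FPKM + 1), cKO minus WT, from a limma fit to all tested genes, with the standard error (SE); the added 1 understates changes of weakly expressed genes. A gene is called when its Benjamini-Hochberg adjusted p over all 14139 tested genes is under 0.05, and 40 of the 45 members reached the 1 FPKM in 3 libraries needed for testing. Cxcl11, Mx2, Rsad2, Oasl1 and Ifi44 did not. Groups are said to be separate when their library values do not overlap. The share of all genes with separate groups is not given here, so separation describes a gene's values and does not set it apart from other genes. The labels leave unstated whether replicates are different animals, and the p-values thus reflect library-to-library spread only, which may be technical.

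The 6 WT libraries of the later ages differed from the other 16. Olfactory and vomeronasal receptor genes were above 0 for 35% to 74.3% of 1204 such genes in those 6 and for 3.32% to 7.31% in the others. The median change of all tested genes at 8 weeks was 0.82 as deposited and 0.04 after scaling by median-of-ratios factors, which centre the typical gene. At 2 and 10 weeks it was −0.15 and 0.24 as deposited, and 0.00 and 0.02 scaled. The counts of members called in each comparison are therefore given on both scales, and a count with no scale named is as deposited. Those 6 libraries are all the WT libraries of 8 and 10 weeks. At these ages an effect of genotype and this difference between libraries cannot be told apart, also where a call holds on both scales. The same limit applies to age in WT from 2 to 8 weeks. The 2-week groups also differed as libraries. Their median FPKM over all tested genes was 9.18 to 9.39 in WT and 5.05 to 8.67 in cKO. Fibroblast marker sums were 12664 to 14859 FPKM in WT and 5107 to 7088 FPKM in cKO at that age. An effect of genotype and a difference between libraries or cell content thus cannot be told apart at 2 weeks either. Socs3 went against the cKO label at the later ages. It was 0.604, 1.36 and 0.93 FPKM in WT compared with 1.6, 5.3, 8.47 and 6.84 FPKM in cKO libraries at 8 weeks, and 2.76, 4.81 and 2.02 against 36.5, 29.8, 47.7 and 32.4 FPKM at 10 weeks. At 2 weeks WT had 9.71 to 10.3 FPKM and the libraries labelled cKO had 1.25, 9.32, 12.6 and 3.51 FPKM. Below, cKO means the libraries so labelled.

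**Figure D1:**
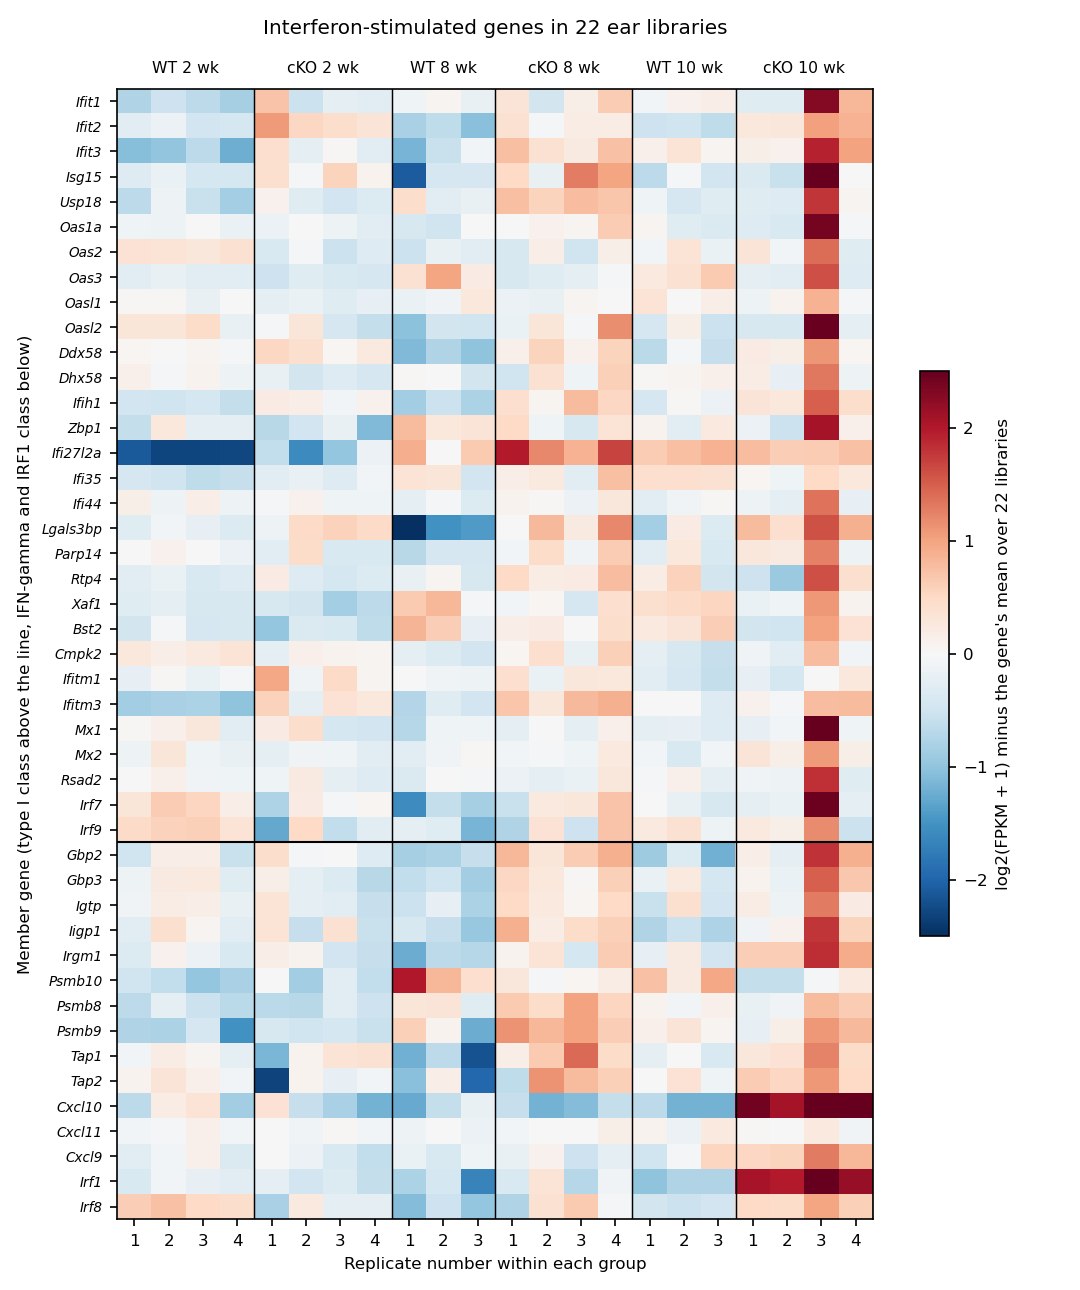
Each row is a member and each column a library, coloured by log2(FPKM + 1) minus the gene's mean over all 22 libraries, with colours saturating beyond the ends of the scale. Replicate 3 of the cKO group at 10 weeks is the highest of all 22 libraries for 34 of 45 members, while Irf1 and Cxcl10 are high in all 4 cKO libraries of that age.

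The largest member changes between genotypes were at 10 weeks, in Irf1 and Cxcl10. Irf1, the transcription factor that IFN-gamma induces, was 6.88, 8.39 and 8.39 FPKM in WT compared with 65.3, 61.9, 95.6 and 70.2 FPKM in cKO. Every cKO library lay far above every WT library, and the fitted change was 3.05 (SE 0.26, limma adjusted p = 8.59e-08), or 2.78 scaled (SE 0.22, limma adjusted p = 1.75e-08). Cxcl10, a chemokine that attracts T cells through CXCR3, was 1.27, 0.577 and 0.572 FPKM in WT compared with 17.9, 14, 58.4 and 31.2 FPKM in cKO. The groups again did not overlap, with a change of 3.93 (SE 0.42, limma adjusted p = 1.16e-06), or 3.71 scaled (SE 0.47, limma adjusted p = 1.26e-05). The exact two-sided permutation p was 0.0286 for each gene, the smallest that 3 against 4 libraries allow.

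Neither gene showed this at the younger ages. At 8 weeks Irf1 was 8.09, 10.6 and 3.94 FPKM in WT compared with 11.1, 19.1, 8.64 and 13.8 FPKM in cKO, groups that overlapped. Cxcl10 at 8 weeks was 0.498 to 2.14 FPKM in WT compared with 0.569 to 1.39 FPKM in cKO. At 2 weeks Irf1 was 11.1 to 14.1 FPKM in WT compared with 9.52 to 12.4 FPKM in cKO, and Cxcl10 was 0.963 to 3.5 and 0.57 to 3.59 FPKM. The genotype difference grew from 8 to 10 weeks by 2.29 for Irf1 (SE 0.37, limma adjusted p = 0.00195) and by 4.11 for Cxcl10 (SE 0.59, limma adjusted p = 0.000556). These were the 2 members called higher in that test of 40, where 0.877% of all genes were called higher and 8.51% lower as deposited, and none was called lower. On the scaled values the same 2 were called, against 2.72% of all genes higher and 0.707% lower.

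**Figure D2:**
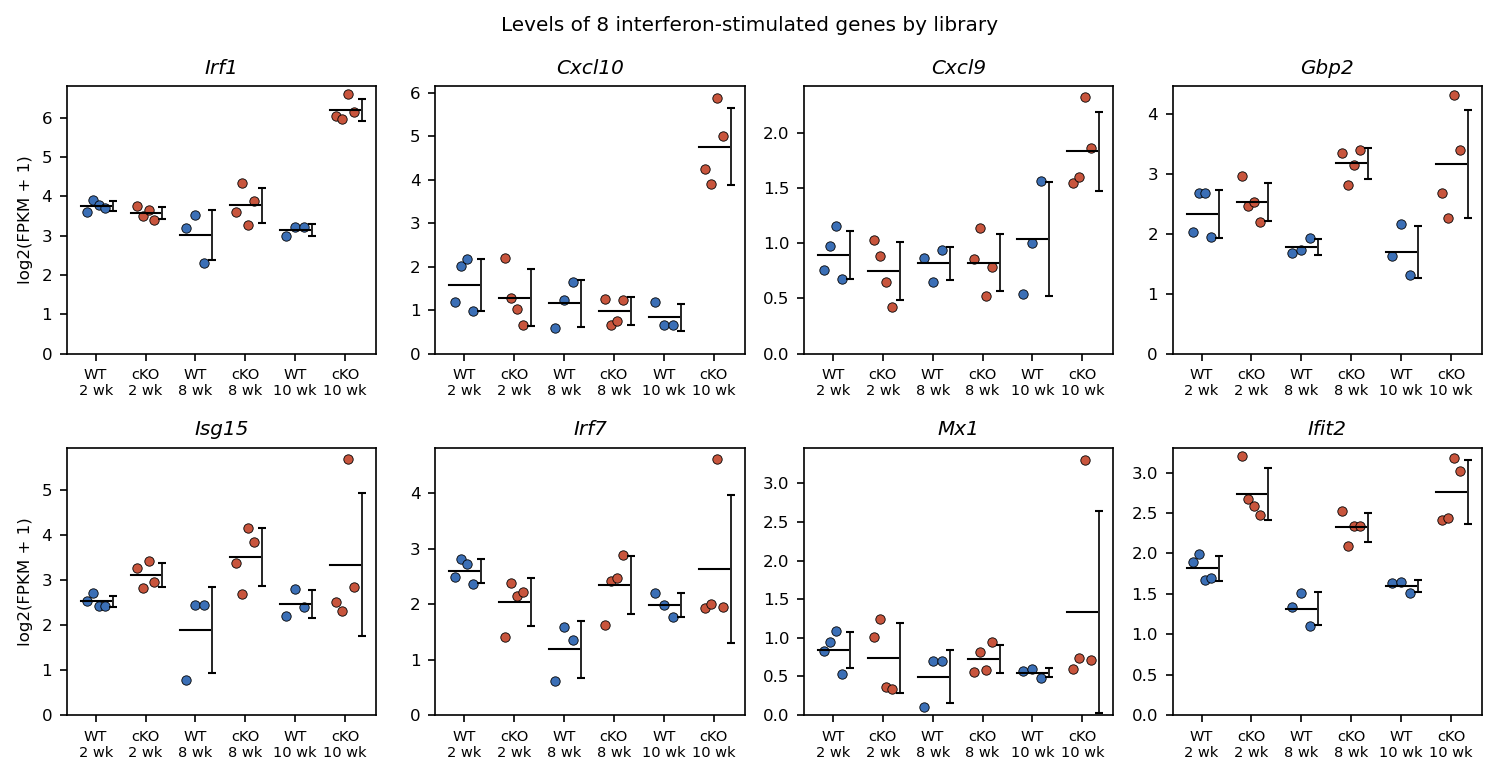
Each panel shows log2(FPKM + 1) of a member in every library, with WT in blue and cKO in red, the group mean as a line and 1 SD as a bar. Irf1 and Cxcl10 separate at 10 weeks in all 4 cKO libraries, whereas the high values of Isg15, Irf7 and Mx1 at 10 weeks belong to replicate 3 alone.

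Other genes that are not specific to interferon moved with Irf1 and Cxcl10 at 10 weeks. Of 12 immediate-early genes, listed after the values were seen, 11 were called higher on either scale, and their summed level was 110 to 192 FPKM in WT compared with 1366 to 2060 FPKM in cKO. All 10 listed targets of NF-kB, a list also made after the values were seen, were called higher on both scales, with sums of 44.2 to 69.2 FPKM in WT compared with 747 to 1170 FPKM in cKO. Because of how the lists were made, both counts are description and test nothing. Of all genes, 20.7% were called higher as deposited and 14.3% scaled. The listed Il6 and Cxcl2 reached the 1 FPKM in 3 libraries needed for testing only through cKO at 10 weeks. Il6, an inflammatory cytokine, was 0.618, 0.0801 and 0.0696 FPKM in WT compared with 43.7, 42.8, 82.2 and 109 FPKM in cKO. Macrophage and monocyte markers were called higher for 8 of 11 genes (6 scaled), and their sum was 278 to 460 FPKM in WT compared with 655 to 1107 FPKM in cKO. Of 8 tested dendritic and Langerhans cell markers, 6 were called higher (5 scaled) and 1 lower, with sums of 42 to 75.4 FPKM in WT compared with 104 to 126 FPKM in cKO. Endothelial markers were called higher for 4 of 8 genes (3 scaled), with sums of 25.8 to 32.2 and 51.2 to 70.2 FPKM. Listed genes of IL-6 and STAT3 signalling, which include Socs3, Il6 and Stat3 themselves, were called higher for 12 of 18 on either scale. Their sums were 200 to 256 and 800 to 1004 FPKM. This list shares Junb with the immediate-early list and Il6 with the NF-kB list, so the lists are not separate observations. Junb made up 316 of the 895 FPKM in cKO replicate 1. None of these summed levels overlapped between the genotypes at 10 weeks. Sums of basal keratinocyte markers were separate too, at 3126 to 4928 FPKM in WT compared with 5461 to 7053 FPKM in cKO. Neutrophil marker sums were 82 to 148 and 159 to 1376 FPKM. The median of all tested genes was also separate, at 5.22 to 7.1 and 7.32 to 8.54 FPKM. Sums overlapped for T and NK cell markers (46.9 to 49.4 and 44.7 to 68.2 FPKM) and for fibroblast and plasmacytoid dendritic cell markers. The plasmacytoid sum was nearly all Ly6d, at 3412 of 3496 FPKM in WT replicate 1 and 2060 of 2126 FPKM in cKO replicate 1. Of its other markers, Siglech was separate and higher in cKO (0.683 to 0.819 against 0.847 to 1.67 FPKM). Runx2 was too (1.11 to 1.28 against 1.38 to 2.25 FPKM). Cox6a2 was separate and lower (55.9 to 107 against 21.4 to 29.4 FPKM), and Ccr9 and Tcf4 overlapped. The part of any of these genes and cells in the rise of Irf1 and Cxcl10 was not tested. Ifng, which encodes IFN-gamma, was listed at 0 in all 4 cKO libraries of 10 weeks and at no more than 0.143 FPKM in any library.

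In all, 11 members were called higher and 1 lower at 10 weeks, beside 20.7% of all genes higher and 4.6% lower. Scaled, 8 were called higher and 1 lower, beside 14.3% and 11.2%. By class, 7 of 14 tested IFN-gamma and IRF1 members and 4 of 26 type I members were called higher as deposited, with median changes of 0.80 and 0.52, and the median of all genes was 0.24. Scaled, these were 6 and 2, with medians of 0.57 and 0.35. Irf1, Cxcl10 and Lgals3bp, all called higher, are among the 10 members known to respond to both interferons. Gbp2, an interferon-inducible GTPase, was 2.08, 3.49 and 1.47 FPKM in WT compared with 5.41, 3.8, 18.8 and 9.53 FPKM in cKO (change 1.46, SE 0.35, limma adjusted p = 0.00425). Irgm1, an immunity-related GTPase, was 5.13, 7.28 and 4.09 FPKM in WT compared with 9.84, 9.9, 24.6 and 12.6 FPKM in cKO (1.16, SE 0.30, limma adjusted p = 0.00791). The groups were separate for both genes, with replicate 3 the highest each time, and Irgm1 was not called without WT replicate 3 (limma adjusted p = 0.0641). Without WT replicate 1 the members called higher numbered 7. Iigp1, a related GTPase, went from 1.19 to 1.55 FPKM in WT to 2.52 to 11.9 FPKM in cKO (1.28, limma adjusted p = 0.00943), and Irf8, a factor of myeloid cells, from 1.2 to 1.31 FPKM to 3.38 to 5.29 FPKM (1.13, limma adjusted p = 0.0038). Igtp and Gbp3, GTPases of the same kind, had changes of 0.60 and 0.65 and were not called. Cxcl9, the other CXCR3 chemokine tested, was 0.45, 1.01 and 1.97 FPKM in WT compared with 1.93, 2.03, 4.04 and 2.65 FPKM in cKO, so the groups overlapped, and its call (0.80, limma adjusted p = 0.0133) was lost on scaling (limma adjusted p = 0.0897) and without WT replicate 1 (0.55, limma adjusted p = 0.113).

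Of the type I class, Ifit2, an antiviral protein that binds viral RNA, and Lgals3bp, a secreted glycoprotein, were called higher at 10 weeks on both scales. Ifit2 was 2.11, 2.12 and 1.85 FPKM in WT compared with 4.31, 4.4, 8.07 and 7.12 FPKM in cKO (1.17, SE 0.21, limma adjusted p = 0.000418). Lgals3bp was 9.02, 19.8 and 13.2 FPKM in WT compared with 30.4, 23.3, 53.3 and 32.4 FPKM in cKO (1.26, SE 0.33, limma adjusted p = 0.00789). Neither gene overlapped between the groups, though Lgals3bp was not called without WT replicate 1 (limma adjusted p = 0.0623). The RNA sensors Ifih1 and Ddx58 were each called at a change of 0.81 as deposited, and not after scaling or without WT replicate 1 (0.69 each) or WT replicate 3 (0.83 and 0.74).

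Broadly high type I genes appeared in a single library, replicate 3 of cKO at 10 weeks. Isg15, a ubiquitin-like modifier, was 51.2 FPKM there and 4.72, 3.95 and 6.22 FPKM in the other 3 libraries of its group, against 3.63, 6.03 and 4.28 FPKM in WT. Mx1, an antiviral GTPase, was 8.86 FPKM there and 0.511, 0.672 and 0.632 FPKM in the others, against 0.394 to 0.511 FPKM in WT. Irf7, the factor that amplifies type I interferon production, was 23.6 FPKM there and 2.83, 3.02 and 2.84 FPKM in the others. In all these genes the other 3 cKO libraries lay close to WT. Replicate 3 exceeded the highest of the other 3 by over 2-fold for 21 of 30 type I members (70%) and 3 of 15 IFN-gamma and IRF1 members (20%), and for 0.948% of all tested genes. It was simply the highest of the 4 for 27 type I members (90%) and 14 members of the other class (93.3%), beside 25.2% of all tested genes. Its median ratio to the highest other library was 2.58 for type I, 1.76 for the IFN-gamma and IRF1 class and 0.876 for all tested genes, so both classes stood high and the type I class by more. Ifit1 followed the same pattern at 12.4 FPKM against 1.2, 1.22 and 3.88 FPKM, and Irf9, the DNA-binding part of the type I complex, was 22.3 FPKM against 11.1, 10.3 and 6.09 FPKM.

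Other features set this library apart. Ifnk, a type I interferon of keratinocytes, was 1.18 FPKM there and 0.0907 to 0.197 FPKM in the other 3. S100a8, an alarmin of neutrophils and stressed keratinocytes, was 838 FPKM there and 7.42, 13.4 and 16.5 FPKM in the others, and its partner S100a9 was 425 FPKM there and 5.13 to 18.6 FPKM in the others. Of the other neutrophil markers measured, Cxcr2 (5.2 FPKM), Csf3r (2.72 FPKM) and Retnlg (1.34 FPKM) were highest of the group there, and Il1r2 (103 FPKM, against 140 to 180 FPKM) and Mpo (0.0773 FPKM, against 0.119 to 2.12 FPKM) were lowest. Their part in the high type I values was not tested. Without replicate 3, 8 members were called higher and 1 lower at 10 weeks, beside 16.2% and 3.14% of all genes. The type I median was then −0.01, while that of the IFN-gamma and IRF1 class was 0.61 and that of all genes 0.22. Irf1 (2.91, limma adjusted p = 7.01e-07) and Cxcl10 (3.55, limma adjusted p = 3.78e-06) were called as before on the deposited scale, as were Gbp2 (1.08), Irgm1 (0.88), Iigp1 (0.88), Irf8 (1.01), Ifit2 (1.03) and Lgals3bp (1.03). Cxcl9, Ifih1, Ddx58 and Psmb10 were no longer called, with limma adjusted p of 0.0531, 0.0514, 0.0542 and 0.0519, and Oas3, an RNA-sensing synthetase, was called lower (−0.70, limma adjusted p = 0.00433).

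**Figure D3:**
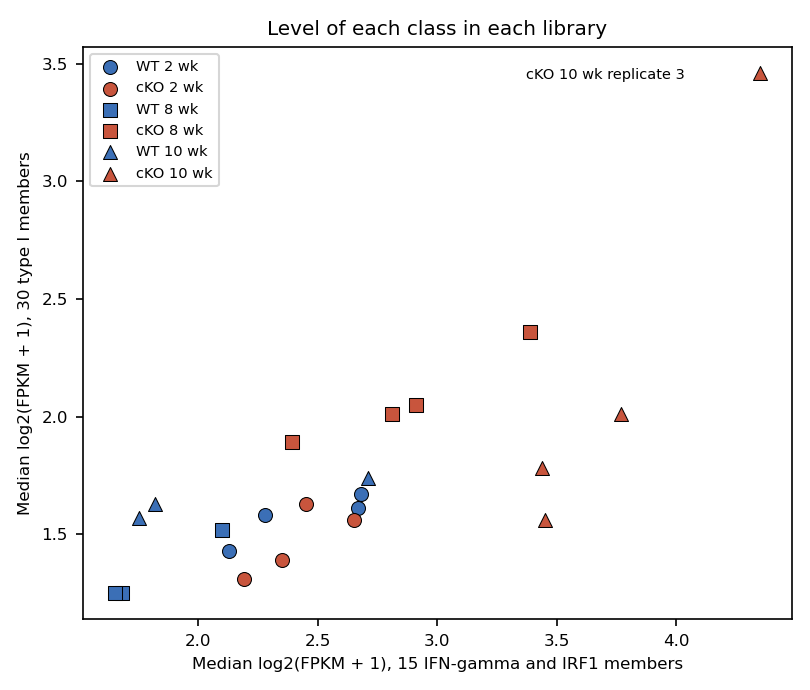
Each point is a library, placed by the median log2(FPKM + 1) of the 15 IFN-gamma and IRF1 members on the x axis and of the 30 type I members on the y axis, with genotype as colour and age as symbol. The 4 cKO libraries of 10 weeks lie furthest right, between 3.44 and 4.35, and replicate 3 alone is high on the y axis. The x value is the level of the middle member of 15, and Cxcl10 is below it in WT and above it in cKO at 10 weeks.

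The level of each class within a library was also described by the median over its members. Such a median is the level of the middle genes, so a single member can shift it by crossing the middle. In the IFN-gamma and IRF1 class the middle gene was Igtp in WT replicate 1 of 10 weeks (2.37 FPKM). In cKO replicate 1 of that age it was Irgm1 (9.84 FPKM). Cxcl10 was 1.27 and 17.9 FPKM in these libraries, so it crossed the middle. The class level is thus not separate from the Cxcl10 result and does not measure a class-wide rise. The median log2(FPKM + 1) of the IFN-gamma and IRF1 class at 10 weeks was 2.09 ± 0.53 (SD, n = 3) in WT and 3.75 ± 0.43 (SD, n = 4) in cKO, without overlap. The median of all tested genes did not overlap either, at 2.64 to 3.02 in WT and 3.06 to 3.25 in cKO. For the type I class it was 1.65 ± 0.08 (SD, n = 3) and 2.20 ± 0.86 (SD, n = 4), and these overlapped, from 1.57 to 1.74 in WT and from 1.56 to 3.46 in cKO. At 2 weeks neither class separated the genotypes, with type I medians of 1.57 ± 0.10 and 1.47 ± 0.15 and IFN-gamma and IRF1 medians of 2.44 ± 0.28 and 2.41 ± 0.19 (SD, n = 4 each). At 8 weeks, on unscaled values, both classes were higher in every cKO library than in any WT library, and so was the median of all tested genes (1.74 to 2.48 in WT, 2.81 to 3.32 in cKO).

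At 2 weeks a few type I members were higher in cKO, and the IFN-gamma and IRF1 class was not. As deposited, 5 of 40 members were called higher, all type I, beside 17.7% of all genes, and 2 were called lower beside 27.1%. Scaled, 7 were called higher beside 23.7% and 1 lower beside 25.9%, so neither share exceeded that of all genes. Ifi27l2a, a protein induced by type I interferon, was 13.3, 11.6, 11.6 and 11.7 FPKM in WT compared with 39.1, 19.4, 30.4 and 54.4 FPKM in cKO (1.41, SE 0.27, limma adjusted p = 0.000518). Ifitm3, a membrane protein that blocks viral entry, was 164, 171, 174 and 150 FPKM in WT compared with 448, 258, 388 and 364 FPKM in cKO (1.11, SE 0.23, limma adjusted p = 0.00086). Ifit3, a partner of the other IFIT proteins, was 2, 2.17, 3 and 1.7 FPKM in WT compared with 7.44, 4.29, 5.45 and 4.13 FPKM in cKO (0.96, SE 0.32, limma adjusted p = 0.0197). The groups were separate for all 3 genes, and also for the median of all tested genes, which was lower in cKO. Ifit2 (0.92) and Ifih1 (0.60) were also called. Ifit3 was not called without WT replicate 4 (0.88) or cKO replicate 1 (0.81), nor Ifih1 without any of the 4 WT libraries or cKO replicates 1 and 4 (0.57 to 0.62), and 3 members were called higher without WT replicate 4 or cKO replicate 1.

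Isg15, Mx1, Irf7 and Irf9 did not pass the test at 2 weeks. Isg15 was 4.37 to 5.53 FPKM in WT compared with 6.13 to 9.71 FPKM in cKO (0.60, SE 0.53, limma adjusted p = 0.367), although every cKO library lay above every WT library. Mx1 was 0.443 to 1.12 FPKM and 0.262 to 1.36 FPKM. Irf7 was 4.11 to 6.06 FPKM in WT compared with 1.65, 4.2, 3.44 and 3.65 FPKM in cKO, a change of −0.56 that was not called, and Irf9 had a change of −0.91 (limma adjusted p = 0.0554), which was called without cKO replicate 2 (−1.21, limma adjusted p = 0.0126). Leaving out some libraries of other ages also gave an Irf9 call at an unchanged −0.91. These were WT replicate 3 and cKO replicates 1 and 4 of 8 weeks, and cKO replicates 3 and 4 of 10 weeks (limma adjusted p = 0.0417 to 0.0488). Irf8 fell from 3.86, 4.31, 3.5 and 3.3 FPKM to 0.812, 2.77, 1.71 and 1.71 FPKM (−0.83, SE 0.25, limma adjusted p = 0.0115), with separate groups, and was not called without cKO replicate 1 (−0.64, limma adjusted p = 0.0555). Oas2, another RNA-sensing synthetase, was called lower as deposited (−0.66, limma adjusted p = 0.041) and not after scaling (limma adjusted p = 0.0647) or without any of the 4 WT libraries or cKO replicates 1, 3 and 4 (−0.58 to −0.68).

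At 8 weeks the outcome depended on the scale. As deposited, 22 members were called higher and 2 lower, beside 62.2% and 3.58% of all genes. Scaled, 2 were called higher and 6 lower, beside 15.2% and 17.1%. The class medians were 0.58 for type I and 0.96 for IFN-gamma and IRF1 as deposited, near the 0.82 of all genes, and −0.13 and 0.12 scaled. Lgals3bp was higher on both scales, at 2.18, 5.33 and 5.8 FPKM in WT compared with 16.9, 30.6, 20.2 and 40.5 FPKM in cKO (2.37, SE 0.33, limma adjusted p = 9.16e-06; scaled 1.44, limma adjusted p = 0.00221). Tap1, a subunit of the peptide transporter for MHC class I, was likewise higher, at 5.56, 8.53 and 2.32 FPKM in WT compared with 15.8, 22.7, 39.3 and 19.6 FPKM in cKO (2.02, SE 0.37, limma adjusted p = 0.00016; scaled 1.10, limma adjusted p = 0.00933). Both genes had separate groups, as did the median of all tested genes.

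Of the 22 members called higher at 8 weeks as deposited, these 2 were the ones also called on scaled values. Isg15 was 0.721, 4.47 and 4.46 FPKM in WT compared with 9.35, 5.44, 16.8 and 13.4 FPKM in cKO (1.62 as deposited, limma adjusted p = 0.0183; 0.80 scaled, limma adjusted p = 0.333). Gbp2 was 2.2, 2.29 and 2.81 FPKM in WT compared with 9.11, 6.02, 7.84 and 9.5 FPKM in cKO (1.40 as deposited, limma adjusted p = 0.00207; 0.54 scaled, limma adjusted p = 0.292). Their groups were separate, yet neither call held on the scaled values, and the deposited Isg15 call was lost without WT replicate 1 (1.06, limma adjusted p = 0.135) or cKO replicate 3 (1.41, limma adjusted p = 0.0508). Irf1 changed sign, from 0.76 as deposited to −0.20 scaled, and was not called without WT replicate 3 (0.41) or cKO replicate 2 (0.58). Oas3 was lower on both scales, at 1.05, 2.12 and 0.821 FPKM in WT compared with 0.191 to 0.548 FPKM in cKO (−0.76, limma adjusted p = 0.0372), a deposited call lost without any of 5 libraries (WT replicates 1 and 2, cKO replicates 1, 2 and 3; −0.53 to −0.83). Scaling added Bst2, Ifi35, Xaf1 and Zbp1 to the lower calls, from −0.85 to −1.38.

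**Figure D4:**
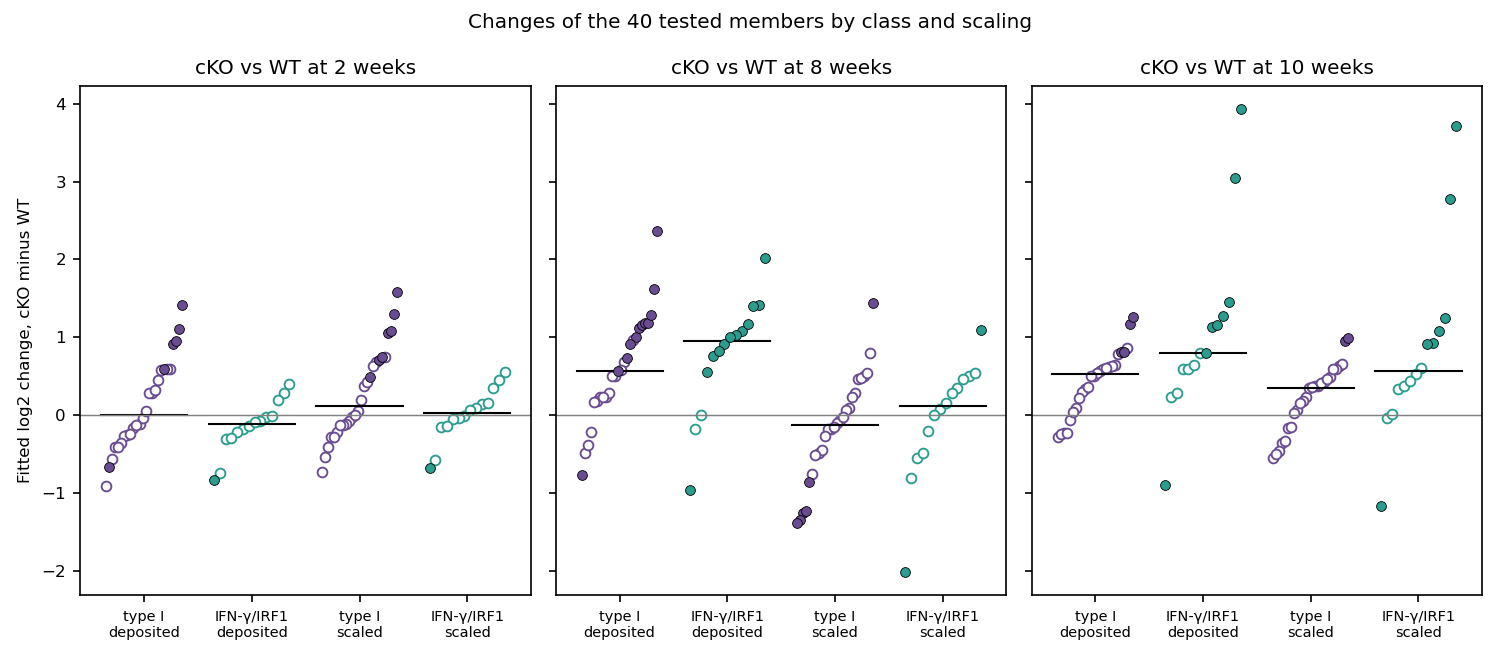
Each point is the fitted log2 change of a tested member, cKO minus WT, by class and by scale, with filled points called at an adjusted p under 0.05 and bars at the class median. At 8 weeks the class medians drop from 0.58 and 0.96 as deposited to −0.13 and 0.12 scaled, while Irf1 and Cxcl10 stay the 2 highest points at 10 weeks on both scales.

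The 3 inducible proteasome subunits did not move together. Psmb8, Psmb9 and Psmb10 replace Psmb5, Psmb6 and Psmb7 in the immunoproteasome. Their ratio to these partners within a library is free of a common scaling factor between libraries. It depends on the partner's level and is not free of the other differences of the later WT libraries. Psmb9/Psmb6 at 8 weeks was 0.0537, 0.0837 and 0.0419 in WT and 0.166, 0.217, 0.195 and 0.191 in cKO, and Psmb8/Psmb5 was 0.0853, 0.163 and 0.174 against 0.239, 0.215, 0.362 and 0.244. Both ratios were higher in every cKO library of that age (exact two-sided permutation p = 0.0286 each, the smallest possible, and 0.0514 adjusted over 9 comparisons). The partners varied widely in WT at 8 weeks. Psmb6 was 416, 184 and 134 FPKM in WT and 120 to 197 FPKM in cKO, and Psmb5 was 306, 163 and 95.1 against 119 to 140 FPKM. Psmb9 itself was 22.3, 15.4 and 5.61 FPKM in WT and 22.9 to 32.7 FPKM in cKO. Psmb10/Psmb7 was lower on average in cKO at all 3 ages, with means of 0.107 and 0.0596 at 2 weeks, 0.223 and 0.109 at 8 weeks, and 0.209 and 0.0946 at 10 weeks in WT and cKO. Its exact permutation p was 0.0286, 0.0571 and 0.0286, adjusted to 0.0514, 0.0857 and 0.0514, so no ratio passed 0.05 after adjustment. At 2 weeks Psmb8/Psmb5 was lower in cKO, at 0.168 ± 0.0214 in WT and 0.112 ± 0.0283 (SD, n = 4 each), which is opposite to 8 weeks. Psmb8 itself had a change of −0.02 at 2 weeks (limma adjusted p = 0.948). Its partner Psmb5 was 80.2 to 90.1 FPKM in WT compared with 96.3 to 159 FPKM in cKO. Likewise Psmb10 had a change of 0.28 that was not called, and Psmb7 was 108 to 118 and 158 to 348 FPKM. The lower ratios at 2 weeks thus went with higher partners, not with lower inducible subunits. Psmb9/Psmb6 at 2 weeks was 0.0935 ± 0.0348 in WT and 0.0793 ± 0.0215 in cKO (SD, n = 4 each; exact two-sided permutation p = 0.6). Psmb10 itself was called lower at 8 weeks, with 83, 36.6 and 27.2 FPKM in WT compared with 24.6, 19.5, 20.8 and 23 FPKM in cKO (−0.96, limma adjusted p = 0.0106), and at 10 weeks (−0.89, limma adjusted p = 0.0392). The 8-week call was lost without WT replicate 1 (−0.51, limma adjusted p = 0.123), and the 10-week call without any of WT replicates 1 and 3 and cKO replicates 1, 2 and 3 (−0.72 to −0.96).

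**Figure D5:**
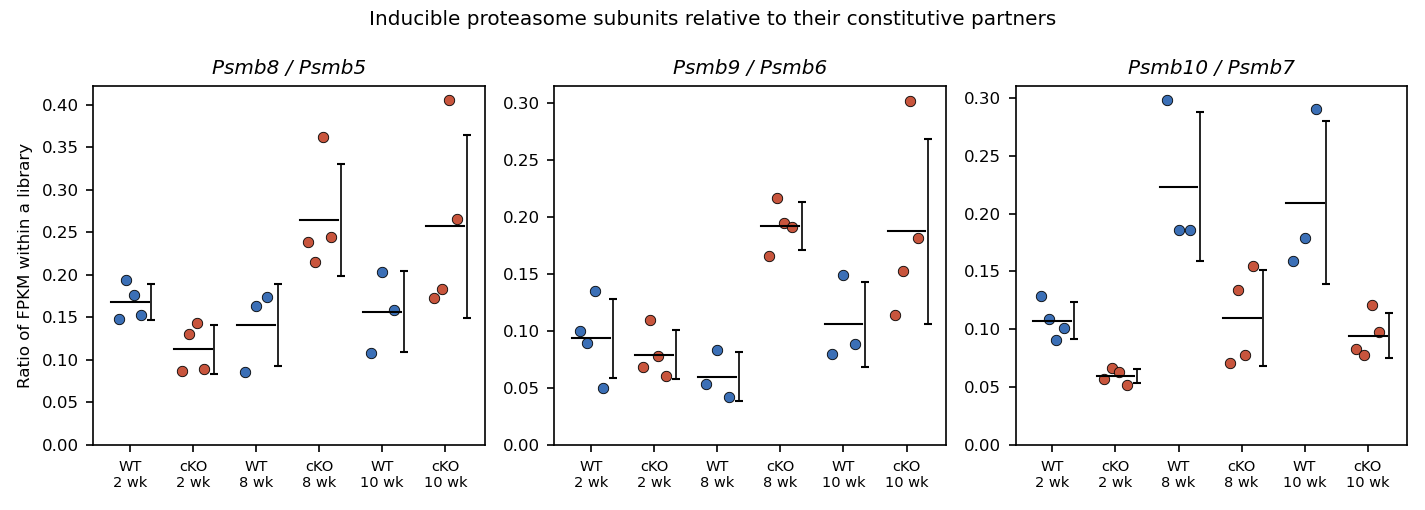
Each panel shows the ratio of FPKM of an inducible proteasome subunit to its constitutive partner in every library, with WT in blue, cKO in red, group means as lines and 1 SD as bars. Psmb9/Psmb6 at 8 weeks averages 0.0598 in WT and 0.192 in cKO, while Psmb10/Psmb7 is lower on average in cKO at each age.

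Changes with age were few in cKO. From 2 to 8 weeks 3 members were called higher, beside 0.382% of all genes, and 0 lower beside 0.849%. The same 3 were called on scaled values, beside 0.53% higher and 0.997% lower. They were Ifi27l2a (2.27, limma adjusted p = 5.03e-05), Psmb8 (1.21, limma adjusted p = 0.00648) and Psmb9 (1.36, limma adjusted p = 0.035). Libraries of the same replicate number correlated between these 2 groups (r = 0.11 to 0.73), though the labels state no pairing. With the replicate number as a block, Psmb9 was not called (limma adjusted p = 0.0522). From 8 to 10 weeks Irf1 (2.42, limma adjusted p = 1.59e-06), Cxcl10 (3.79, limma adjusted p = 2.4e-06) and Cxcl9 (1.01, limma adjusted p = 0.00768) were called higher and 0 members lower, beside 1.97% and 1.08% of all genes, or 2.46% and 0.849% scaled, with the same 3 members.

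In WT the age comparisons again turned on the scale. From 2 to 8 weeks 7 members were called higher and 11 lower, beside 9.69% and 65.3% of all genes, and scaled 16 were higher and 1 lower, beside 27.9% and 32.3%. Ifi27l2a rose on both scales, from 11.6 to 13.3 FPKM at 2 weeks to 60.3 to 114 FPKM at 8 weeks (2.76, limma adjusted p = 1.49e-07), and Irf8 fell on both (−1.43, limma adjusted p = 7.94e-05). From 8 to 10 weeks 2 members were called higher and 0 lower, beside 30.8% and 0.587%, and scaled 0 and 1, beside 1.8% and 3.62%. The genotype difference between 8 and 2 weeks was called higher for 15 members and lower for 1, beside 57% and 6.93%, and scaled for 2 and 8, beside 25.9% and 23.5%. Irf8 (1.74, limma adjusted p = 0.000454) and Tap1 (2.09, limma adjusted p = 0.00158) were higher and Psmb10 lower (−1.24, limma adjusted p = 0.0148) on both scales.

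Upstream of the members, Ifnb1, which encodes interferon beta, was at or below 0.107 FPKM in every library. Genes of the Ifna family were above 0 for 3 to 11 of 12 genes in the WT libraries of 8 and 10 weeks and for 0 to 3 in the other 16, which are the same WT libraries that held the receptor genes. The family summed to 5.66, 9.17 and 5.14 FPKM in WT at 8 weeks, to 2.49, 0.308 and 4.06 FPKM in WT at 10 weeks and to no more than 0.154 FPKM in any other library, and Ifna14, which reached 3 FPKM, was its only tested member; the source of this signal was not tested. Of 6 interferon receptors, Ifngr1, the ligand-binding chain for IFN-gamma, was called higher in cKO at each age as deposited. It was 33.6 to 38.1 FPKM in WT compared with 74.4 to 89.7 FPKM in cKO at 2 weeks (1.19, limma adjusted p = 4.92e-05), and 29.5 to 42.1 against 64.8 to 80.6 FPKM at 10 weeks (1.03, limma adjusted p = 0.000532). At 8 weeks its change of 1.22 became 0.18 scaled (limma adjusted p = 0.488). Other receptors went the other way at 2 weeks, an age at which 27.1% of all tested genes were called lower as deposited. Ifngr2, the second chain of the IFN-gamma receptor, was 18.6 to 19.9 FPKM in WT compared with 7.84 to 16.6 FPKM in cKO. Ifnar1 (10.3 to 11.3 and 3.7 to 9.89 FPKM) and Il28ra (4.66 to 5.3 and 0.898 to 4.27 FPKM) were also lower, and Ifnar2 and Il10rb overlapped. At 10 weeks Ifngr2 overlapped, at 10 to 15.8 and 9.23 to 18.2 FPKM. Of the transducers, the kinases Jak1 (1.06) and Jak2 (1.12) were called higher at 10 weeks, and Stat2 and Tyk2 were called lower at 2 weeks. Socs1, the main inhibitor of interferon signalling, was called lower at 2 weeks (−1.33, limma adjusted p = 0.0168) and had changes of 0.21 and 0.33 at 8 and 10 weeks that were not called.

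A further list of 41 interferon-stimulated genes, of which 37 were tested, was counted in the same way. It had 6 called higher and 4 lower at 2 weeks, 25 and 2 at 8 weeks, and 11 and 1 at 10 weeks as deposited. Scaled, this became 9 and 3, 4 and 5, and 9 and 1. The shares of all genes called higher at these ages were 17.7%, 62.2% and 20.7% as deposited and 23.7%, 15.2% and 14.3% scaled. The higher calls of this list were thus near those shares at 2 and 8 weeks as deposited. Samd9l, an antiviral restriction factor, was called higher at every age on both scales (1.27, 1.84 and 1.40 as deposited), as was Gbp9, a guanylate-binding GTPase (0.69, 1.34 and 1.03). Of 10 genes of MHC class I presentation, 6, 6 and 5 were called higher at 2, 8 and 10 weeks as deposited, and 6, 3 and 4 scaled, beside the same shares of all genes. H2-K1, a class I heavy chain, was 98.4 to 153 FPKM in WT compared with 254 to 350 FPKM in cKO at 10 weeks (1.27, limma adjusted p = 0.00137), and was called higher at the other ages too (0.75 and 2.29).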

How the data were processed

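RNA from 22 ear libraries was analysed from 1 FPKM value per gene and library, as the authors deposited them. Per the labels' protocols, libraries came from the TruSeq kit and were read as 50-base single ends. Per the submitters' processing notes, TopHat2 2.1.0 and Cufflinks on build mm9 were used; annotation and Cufflinks version: not given in the sources used here. FPKM hides depth in reads; spacing of low values gave depths of 1 to 1.72 relative to the shallowest library. Values were taken as log2(FPKM + 1), genes with 1 FPKM in 3 libraries were kept (14139), and limma 3.58.1 in R 4.3.3 fitted 6 groups with an intensity trend. Scaled values used median-of-ratios factors. Figures used matplotlib 3.10.9, and tables pandas 2.3.3 and numpy 2.4.6, under Python 3.11.15. The fit was tested on simulated data. Members, classes and lists were chosen with earlier results of these data known; the immediate-early and NF-kB lists were added after their values were seen. All 45 members could be named, with library values for 12 hub members and the largest called changes. Coordinates are RefSeq's on GRCm38.p6, not the build of the values. Among the groups compared, every replicate number gave a correlation over 0.1 only between cKO at 2 and 8 weeks (r = 0.11 to 0.73). The same held for cKO at 2 weeks with WT at 10 weeks (r = 0.14 to 0.29), which were not compared. The labels state no pairing.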

Additional observations from a re-analysis of the deposited data

Results flagged for a closer look

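Within groups of 4 libraries, a gap to the nearest library that was large for the group's range marked 21 values in 180 group tests; chance marks about 1 in 20. In replicate 3 of cKO at 10 weeks 10 members stood high: Isg15 (51.2 FPKM), Irf7 (23.6), Mx1 (8.86), Rsad2 (4.6), Oasl2 (11.9), Oas1a (10.4), Oas3 (3.8), Ifih1 (9.65), Ddx58 (9.28) and Ifi44 (2.26 FPKM). In replicate 4 of cKO at 8 weeks Mx2 (0.69 FPKM), Rsad2 (0.93) and Oas1a (2.38 FPKM) stood high. In cKO at 2 weeks Tap2 (1.34 FPKM), Lgals3bp (15.6) and Cmpk2 (0.944 FPKM) were low in replicate 1, and Parp14 (3.12 FPKM) was high in replicate 2. In WT at 2 weeks Mx2 (0.768 FPKM) and Bst2 (22.4 FPKM) were high in replicate 2, Ifi27l2a (13.3 FPKM) was high in replicate 1 and Oasl1 (0.186 FPKM) was low in replicate 3.

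The genotype difference on the log2(FPKM + 1) scale, as deposited, changed between ages by limma's test of the difference for 18 results. From 2 to 8 weeks it rose for Irf1 (0.94), Irf7 (1.72), Irf8 (1.74), Irf9 (1.42), Tap1 (2.09), Tap2 (2.14), Ddx58 (1.01), Igtp (1.05), Irgm1 (1.04), Iigp1 (1.25), Gbp2 (1.20), Gbp3 (1.30), Parp14 (0.87), Lgals3bp (1.78) and Cmpk2 (0.81), and fell for Psmb10 (−1.24). The median over all genes was 0.96, and on scaled values only Irf8, Tap1 and Psmb10 of these were called in the same direction. From 8 to 10 weeks it rose for Irf1 (2.29) and Cxcl10 (4.11).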

How the results depend on the processing

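Absolute depth is unknown, so the precision of low values such as Mx1 or Cxcl9 is unknown. Of 67 member results at the 3 ages, a pseudocount of 0.1 changed no call, the replicate block 1 and median-of-ratios scaling 24. The cause of the moves below was not tested. Counts are members called higher, then lower.

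With scaling, cKO against WT gave 1 lower at 2 weeks and 2 and 6 at 8 weeks; WT 8 against 2 weeks gave 16 and 1, WT 10 against 8 weeks 0 and 1, and the genotype difference 8 against 2 weeks 2 and 8. Scaling with the replicate block, chosen after seeing the data, gave 8 and 1 at 2 weeks, 2 and 7 at 8 weeks, 2 lower at 10 weeks, 15 and 1, 0 and 3, and 2 and 8 in the same order. The replicate block alone left every count within 1.5 times (21 higher at 8 weeks in place of 22). Removing a length trend, also chosen after seeing the data, gave 4 and 6 at 8 weeks, 16 and 2, 0 and 1, and 0 and 4. Array weights gave 9 and 9 at 2 weeks, 14 and 1 at 8 weeks, 5 lower for WT 8 against 2 weeks, 1 higher for WT 10 against 8 weeks, 22 higher for cKO 8 against 2 weeks, 6 lower for cKO 10 against 8 weeks and 2 lower for the genotype difference 10 against 8 weeks. Leaving out each group's lowest-median library gave 3 and 1 at 2 weeks, 14 and 1 at 8 weeks, 5 lower, 1 and 1, and 5 higher for the genotype difference 8 against 2 weeks. With only the compared groups there were 4 lower at 2 weeks, 1 lower at 8 weeks, 18 lower for WT 8 against 2 weeks, 1 higher for WT 10 against 8 weeks, 1 higher for cKO 8 against 2 weeks and 2 lower for the genotype difference 8 against 2 weeks. No filter gave 1 lower at 2 weeks; a filter at 5 FPKM gave 0 lower at 2 weeks, 1 lower at 8 weeks and 7 higher at 10 weeks; the Eif2s3y covariate gave 1, 1 and 0 lower at 2, 8 and 10 weeks.

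The type I minus IFN-gamma and IRF1 median was 0.12, −0.38 and −0.27 at 2, 8 and 10 weeks. The 5 FPKM filter gave 0.43 and 0.03 at 2 and 8 weeks, and array weights and the lowest-median libraries gave −0.11 and −0.16 at 8 weeks.

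Counting sign changes of values called under at least one of the settings compared, reversed at 8 weeks were Irf1 (−0.20 scaled, −0.18 with the block), Psmb8 (−0.48 in both, −0.11 without the length trend), Ifi27l2a (−0.15, −0.22), Cmpk2 (−0.02, −0.04, −0.35), and, without the length trend, Irf8 (−0.02), Cxcl9 (−0.87) and Parp14 (−0.23); at 2 weeks Tap1 (0.35) with array weights. Values called on neither scale also changed sign on scaling at 8 weeks, among them Ifit1 (0.24 to −0.48), Irf9 (0.51 to −0.44), Mx1 (0.23 to −0.17) and Cxcl9 (0.01 to −0.55).

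Leaving out each library in turn gave 3 to 6 higher and 0 to 3 lower at 2 weeks, 15 to 25 and 0 to 3 at 8 weeks, 7 to 12 and 0 to 1 at 10 weeks (7 without WT replicate 1), 2 to 9 and 5 to 14 for WT 8 against 2 weeks, 0 to 3 higher for WT 10 against 8 weeks, 2 to 4 higher for cKO 8 against 2 weeks, 0 to 1 lower for cKO 10 against 8 weeks (1 without cKO replicate 3), 9 to 19 and 0 to 2 for the genotype difference 8 against 2 weeks and 0 to 1 lower for that of 10 against 8 weeks. The class difference ran from 0.06 to 0.27, −0.48 to −0.20 and −0.61 to −0.18.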
